A study of Mus musculus with 8 samples.

Results

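The 10 genes described here make the main protein parts of plasma lipoproteins in mouse liver or load them with lipid: Apoa1, Apoa2, Apoa4, Apoa5, Apob, Apoc1, Apoc3, Apoe, Apoh and Mttp. They were chosen by name, as apolipoproteins and the lipid-loading protein of particle assembly, by a rule that uses no measured value but with earlier results of these data known, and are 10 of the 41388 features counted. Liver RNA was sequenced from male db/db mice on the C57B/6J background, which lack a working leptin receptor and become obese and diabetic. Mice were randomised at 5 weeks of age to an adenovirus given through the tail vein that carried green fluorescent protein (AdGFP, n = 4) or nicotinamide phosphoribosyltransferase (AdNAMPT, n = 4), the enzyme that limits NAD salvage, and livers were taken at 10 weeks. The series gives 4 to 5 weeks of overexpression, while the paper's methods and a figure legend name shorter times after the adenovirus. Every mouse of both groups was db/db and received a virus, so no lean mouse and no mouse without virus enters any comparison. The question addressed was whether the NAMPT virus was accompanied by a different level of these transcripts when compared with the GFP virus.

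The liver ships triglyceride and cholesterol in particles built on apolipoprotein B. Microsomal triglyceride transfer protein, encoded by Mttp, adds lipid to apolipoprotein B as it enters the endoplasmic reticulum, and particles that fail this step are degraded. Apolipoproteins A1 and A2 are the main proteins of high-density lipoprotein, apolipoproteins C1, C3 and A5 govern how fast plasma triglyceride is cleared, and apolipoprotein E is the ligand by which remnant particles are taken back into hepatocytes.

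In none of the 10 genes did the difference between AdGFP and AdNAMPT livers pass the test. By limma with Benjamini-Hochberg adjustment over all 12270 genes tested, 0 of 10 passed an adjusted p of 0.05, against 0.277% of all genes, and 0 of 10 reached an unadjusted p under 0.05, against 9.69% of all genes. The edgeR quasi-likelihood test and DESeq2 also called 0 of 10. Fold changes (AdNAMPT over AdGFP) ran from 0.948 to 1.15, with 6 estimates above 1 and 4 under it (all 10 above with library size alone, a scaling that moved the median log2 fold change of all genes to 0.09), and adjusted p-values ran from 0.730 to 0.986. The median log2 fold change of the 10 was 0.03, and that of all tested genes was 0.00. For all 10 the 95% confidence interval of the fold lay within 1.5-fold either way, between 0.778 at the lowest and 1.47 at the highest. Counting depth was high, since each gene held between 2664 and 344670 reads in every library. A miss of the threshold does not show that the groups were equal, and the intervals are what these 8 libraries allow.

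**Figure D1:**
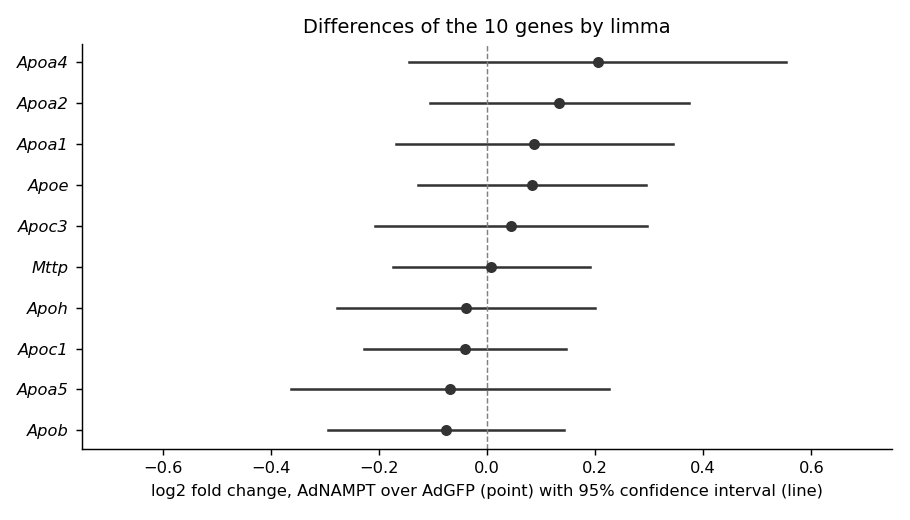
Log2 fold change of AdNAMPT over AdGFP for each of the 10 genes (point) with its 95% confidence interval (line), from limma over 4 libraries a group. Every interval crosses 0, with Apoa4 highest at 0.20 and Apob lowest at -0.08.

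Libraries held 12006713 to 19879814 counts. Nampt, the transferred gene, was read first as a check of the labels. It stood at 102.3, 136.8, 152.7 and 141.6 CPM (counts scaled so that every library has the same total) in AdGFP and at 148.8, 120.5, 177.8 and 168.1 CPM in AdNAMPT, with overlapping groups, a log2 fold change of 0.08 and a limma adjusted p of 0.915. Because this gene does not mark the groups apart, AdGFP and AdNAMPT mean the libraries labelled so, and each direction given rests on those labels. Features annotated as ribosomal RNA took 1.77 to 2.63% of counts in AdGFP and 0.863 to 1.62% in AdNAMPT, and the noncoding gene Gm42418 took 0.996 to 2.25% and 0.200 to 0.233%. TMM factors, which scale libraries so that most genes match, were computed without the ribosomal RNA features and were 0.947 to 0.977 in AdGFP and 1.01 to 1.05 in AdNAMPT. Levels in CPM are therefore given for each library as deposited, and fold changes come from TMM-scaled counts. AdNAMPT replicate 1 received the lowest weight in the fit (0.440). Without it the log2 estimates were 0.14 for Apoa1, -0.12 for Apob, -0.09 for Apoh, 0.06 for Mttp and 0.02 for Apoc3, none past the threshold, and those of Apoa2 and Apoa4 are given beside these genes.

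The 10 protein-coding genes lie on 6 chromosomes (coordinates in GRCm38). Apoa1 (ENSMUSG00000032083, chr9:46228580-46230466), Apoc3 (ENSMUSG00000032081, chr9:46232933-46235636), Apoa4 (ENSMUSG00000032080, chr9:46240696-46243459) and Apoa5 (ENSMUSG00000032079, chr9:46268633-46271919) form a cluster on chromosome 9 in which only Apoc3 is on the minus strand. Apoe (ENSMUSG00000002985, chr7:19696109-19699166) and Apoc1 (ENSMUSG00000040564, chr7:19689484-19692658) are neighbours on the minus strand of chromosome 7. Apoa2 (ENSMUSG00000005681, chr1:171225054-171226379), Apob (ENSMUSG00000020609, chr12:7977648-8016835), Apoh (ENSMUSG00000000049, chr11:108343354-108414396) and Mttp (ENSMUSG00000028158, chr3:138089855-138143388, minus strand) stand alone. Exons of Apoa4 overlap Gm10680 on the other strand by 632 bases and those of Apoh overlap Prkca by 30 bases. Gm10680 held 0 to 1 read and Prkca 136 to 326 reads in any library. Whether counting used strand is not stated, and the study counted only unambiguous reads. These counts therefore cannot tell whether reads in the shared bases were left out of both genes.

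RefSeq promoter windows of GRCm38.p6 were found for 8 of the 10 genes, all but Apoc1 and Apoc3. Each runs from 250 bases before to 50 bases after the RefSeq start. That start matches the gene coordinates given above for Apoa2 and Apoa5 and differs from them for the others. The Apoh window lies well inside the gene. The windows printed are those of the genes whose reads kept the closest ratio among pairs with both windows (Apoa2 and Mttp), of Apoe from the closest pair of all, and of the genes whose ratio varied most (Apob and Apoa4). Sequences read 5′ to 3′ on the strand of the gene. The motifs reported here were matched on both strands, and capitals mark TATAAA and CCAAT, with CCAAT in Apoa2 on the opposite strand.
Apoa2 (chr1:171224804-171225103, plus strand): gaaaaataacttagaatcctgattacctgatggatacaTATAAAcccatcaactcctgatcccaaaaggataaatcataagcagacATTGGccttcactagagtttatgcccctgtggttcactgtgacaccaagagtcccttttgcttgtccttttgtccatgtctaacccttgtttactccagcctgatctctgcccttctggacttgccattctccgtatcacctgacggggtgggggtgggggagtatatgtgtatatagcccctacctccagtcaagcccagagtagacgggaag
Mttp (chr3:138143369-138143668, minus strand): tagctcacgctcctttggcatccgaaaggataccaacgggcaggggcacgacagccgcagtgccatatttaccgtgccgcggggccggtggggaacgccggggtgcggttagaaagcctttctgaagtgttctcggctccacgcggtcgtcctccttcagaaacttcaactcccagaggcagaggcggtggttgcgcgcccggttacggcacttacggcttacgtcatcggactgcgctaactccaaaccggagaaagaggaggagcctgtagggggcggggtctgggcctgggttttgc
Apoe (chr7:19699139-19699438, minus strand): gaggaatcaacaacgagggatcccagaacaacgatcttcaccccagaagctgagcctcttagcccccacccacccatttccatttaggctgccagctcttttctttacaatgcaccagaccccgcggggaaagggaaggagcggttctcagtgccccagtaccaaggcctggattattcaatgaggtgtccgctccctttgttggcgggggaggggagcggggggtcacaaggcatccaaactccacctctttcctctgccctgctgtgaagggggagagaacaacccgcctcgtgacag
Apob (chr12:7977427-7977726, plus strand): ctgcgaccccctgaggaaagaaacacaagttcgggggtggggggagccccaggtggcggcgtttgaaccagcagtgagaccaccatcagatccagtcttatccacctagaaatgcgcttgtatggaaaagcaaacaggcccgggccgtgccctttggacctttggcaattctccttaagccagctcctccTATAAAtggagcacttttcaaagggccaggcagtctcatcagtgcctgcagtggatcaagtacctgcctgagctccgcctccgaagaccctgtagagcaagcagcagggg
Apoa4 (chr9:46240594-46240893, plus strand): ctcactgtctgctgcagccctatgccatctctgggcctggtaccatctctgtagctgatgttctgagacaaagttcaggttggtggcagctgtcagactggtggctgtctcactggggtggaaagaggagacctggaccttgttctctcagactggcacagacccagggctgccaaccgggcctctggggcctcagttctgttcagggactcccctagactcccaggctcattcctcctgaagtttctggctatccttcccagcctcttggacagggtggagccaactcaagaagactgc
TATAAA occurred in Apoa2, Apoa5 and Apob, 3 of 8 windows, against 13.6% of the 32851 windows of all genes. In Apob its first base lay at -60 from the RefSeq start and in Apoa5 at -56, while in Apoa2 it lay far upstream at -212. For Apob the RefSeq start lies downstream of the gene start given above. CCAAT on either strand occurred in 1 of the 8 (Apoa2, on the opposite strand) against 37.4% of all windows. AGGTCA, the core of a nuclear receptor site, occurred in 1 of the 8 (Apoh, on the opposite strand) against 16.3%, and CAAAGTCCA, a core of HNF4A sites, occurred in 0 of the 8 against 0.475%. Among the pair with a close ratio Apoa2 holds TATAAA and CCAAT and Mttp holds neither, and absence of a match says only that these letters are not in the window.

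These are among the most abundant transcripts of the liver: 7 of the 10 were among the 100 highest genes by mean CPM, with Apoe ranked 3, Apob 5 and Apoa2 9. Levels between genes were compared as RPKM, which is CPM per kilobase of exon, averaged over the 8 libraries. Apoa2 was highest at 18517 RPKM, followed by Apoc1 (8515) and Apoe (8020). A middle group held Apoc3 (1856), Apoh (1432), Apoa1 (968.5), Apob (890.8) and Apoa5 (576.1), and Apoa4 (155.0) and Mttp (86.2) were lowest. Apob, which has by far the longest transcript, ranked 5 of all genes in reads but 7 of the 10 per length. Apoa2 stood 215 times above Mttp. Among neighbours in this order, the library ranges of Apoc1 and Apoe, of Apoc3 and Apoh, and of Apoa1 and Apob overlapped, and the other 6 steps were larger than the spread over libraries. RPKM of genes with short exons depends on how reads near transcript ends are counted, which was not tested.

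**Figure D2:**
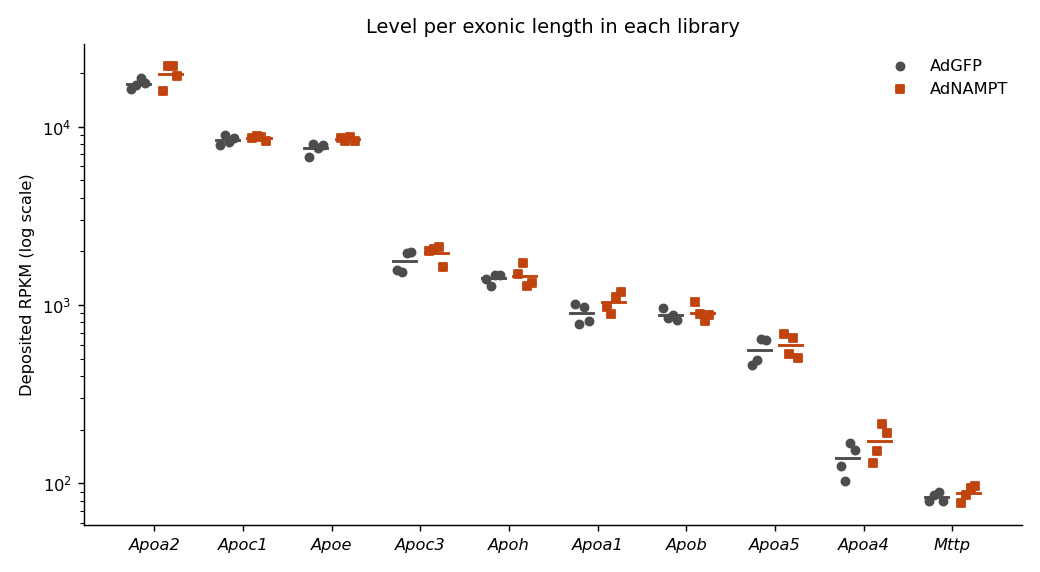
RPKM (log scale) of each gene in the 4 AdGFP (grey circles) and 4 AdNAMPT (orange squares) libraries, with a bar at each group mean. The genes run from Apoa2, near 18517 RPKM, to Mttp, near 86.2 RPKM, and the groups lie close together within every gene.

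Both genes of particle assembly lay close to no difference. Apob, the structural protein of very-low-density and low-density lipoprotein, was measured at 13327, 11780, 12200.1 and 11483 CPM in AdGFP (here and throughout, in the order of the replicate numbers) and 14472, 12464, 11314 and 12260.2 CPM in AdNAMPT. Group means came to 12197 ± 809 CPM and 12628 ± 1328 CPM (SD, n = 4), and the lowest and the highest library were both AdNAMPT. On the TMM scale limma gave a log2 fold change of -0.08 (SE 0.10; adjusted p 0.855), with a fold interval of 0.815 to 1.10. Mttp, the lipid transfer protein that acts on apolipoprotein B, stood at 352.6, 378.1, 392.8 and 353.6 CPM in AdGFP and at 342.4, 378.9, 416.5 and 426.8 CPM in AdNAMPT. AdNAMPT spanned the whole AdGFP range, and the limma log2 estimate was 0.01 (SE 0.08; adjusted p 0.986). The interval for Mttp was 0.887 to 1.14-fold, and its SE was the smallest of the 10.

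Apoa2 and Apoa1, the main high-density lipoprotein genes, both had estimates above 0, and neither passed the threshold. Apoa2 stood at 8713, 9149, 10084 and 9359 CPM in AdGFP and at 8486, 11753, 11656 and 10351 CPM in AdNAMPT. In CPM as deposited, replicates 2, 3 and 4 of AdNAMPT lay above every AdGFP library and replicate 1 lay under all of them. With TMM scaling AdNAMPT replicate 4 (10345 CPM) fell under AdGFP replicate 3 (10536 CPM). The limma log2 estimate for Apoa2 was 0.13 (SE 0.11, adjusted p 0.738), and it was 0.17 without AdNAMPT replicate 1 (adjusted p 0.594). It was lower, at 0.06, with voom without sample weights, and 0.08 with the edgeR quasi-likelihood test and with DESeq2. Apoa1, the activator of cholesterol esterification on high-density lipoprotein, stood at 1256, 971.5, 1205 and 1002 CPM in AdGFP and at 1199, 1107, 1378 and 1458 CPM in AdNAMPT. AdNAMPT replicates 3 and 4 were the highest of the 8, while the rest interleaved, and the limma log2 estimate was 0.09 (SE 0.12; adjusted p 0.857).

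Apoa4, which in rodents is made by liver as well as gut and travels on high-density lipoprotein and chylomicrons, was the most variable of the 10. It stood at 228.4, 188.1, 305.4 and 280.1 CPM in AdGFP and at 236.3, 275.4, 389.1 and 348.4 CPM in AdNAMPT. The group means were 250.5 ± 52.5 and 312.3 ± 69.1 CPM and the groups overlapped, with AdNAMPT replicates 3 and 4 above every AdGFP library. Its log2 fold change of 0.20 (SE 0.16; limma adjusted p 0.730) was the largest of the 10 and carried the widest interval, 0.905 to 1.47-fold. The estimate moved with single libraries, from 0.06 without AdNAMPT replicate 3 to 0.36 without AdNAMPT replicate 2. Without AdNAMPT replicate 1 it was 0.32 (adjusted p 0.506). The spread of Apoa4 over all libraries exceeded that of 76.5% of the tested genes, whereas 8 of the 10 members were below the median gene. The tested genes include many of far lower level, and spread was not compared with genes of a like level.

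The genes that set plasma triglyceride clearance gave estimates on both sides of 0. Apoa5, which promotes lipolysis by lipoprotein lipase, stood at 1164, 1233, 1623 and 1606 CPM in AdGFP and at 1737, 1330.0, 1636 and 1275 CPM in AdNAMPT. Each group held a low pair of libraries (replicates 1 and 2 of AdGFP, 2 and 4 of AdNAMPT) and a high pair, and the limma log2 estimate was -0.07 (SE 0.13; adjusted p 0.914). Apoc3, an inhibitor of the same lipolysis, stood at 1600.1, 1559, 1975 and 2008 CPM in AdGFP and at 2023, 2098, 2150 and 1646 CPM in AdNAMPT. In CPM as deposited, 3 AdNAMPT libraries lay above every AdGFP library and AdNAMPT replicate 4 lay among the low AdGFP libraries. With TMM scaling the highest library was AdGFP replicate 4 (2097 CPM), and AdNAMPT reached 2095 CPM. The log2 fold change of Apoc3 was 0.04 (SE 0.11, limma adjusted p 0.937). Apoc1, which hinders remnant uptake and activates cholesterol esterification, stood at 4218, 4822, 4410.1 and 4615 CPM in AdGFP and at 4614, 4752, 4667 and 4482 CPM in AdNAMPT. The AdNAMPT libraries all fell inside the AdGFP range, and the limma log2 estimate was -0.04 (SE 0.09; adjusted p 0.922). The spread of Apoc1 over the 8 libraries was above that of only 5.63% of the tested genes, which were of any level.

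Apoe was the 1 gene of the 10 whose groups did not overlap in CPM as deposited. It stood at 13357, 15799, 14928 and 15654 CPM in AdGFP and at 17068, 16462, 17338 and 16438 CPM in AdNAMPT, so that every AdNAMPT library lay above every AdGFP library. The means were 14934 ± 1119 and 16827 ± 449 CPM. On this scale 7.36% of all tested genes were likewise higher in AdNAMPT without overlap, and with TMM scaling the separation was gone: 0 of 10 members were apart against 4.79% of all genes in either direction. TMM-scaled levels of Apoe were 14011 to 17157 CPM in AdGFP and 16429 to 16749 CPM in AdNAMPT, and the limma log2 estimate was 0.08 (SE 0.10; adjusted p 0.829). Apoh, or beta-2-glycoprotein I, a phospholipid-binding plasma protein, stood at 2239, 2039, 2341 and 2358 CPM in AdGFP and at 2382, 2736, 2037 and 2128 CPM in AdNAMPT. The AdNAMPT libraries enclosed the AdGFP range, with a log2 fold change of -0.04 (SE 0.11; limma adjusted p 0.945). AdNAMPT replicate 2 was the highest for Apoh, and without it the estimate was -0.21 (adjusted p 0.479).

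The same dependence on scale applied to the 10 genes as a sum. Their reads made up 4.81 ± 0.129% of all counts in AdGFP (4.65 to 4.95%) and 5.24 ± 0.112% in AdNAMPT (5.08 to 5.34%), and the groups did not overlap. With ribosomal RNA features and Gm42418 taken out of the denominator the shares were 4.99 ± 0.123% and 5.33 ± 0.129%, and the groups were still apart (4.81 to 5.09% and 5.14 to 5.42%). With TMM-scaled library sizes they were 5.08 ± 0.148% and 5.15 ± 0.119%, and the groups overlapped. The higher share in AdNAMPT was thus present under the first and the second denominator and lost under TMM scaling. With library size alone the median log2 fold change of all tested genes was also above 0, at 0.09. In CPM as deposited, 7.36% of tested genes were higher in AdNAMPT without overlap. No background over sums of other genes was computed. Reads per gene in bulk liver cannot tell fewer hepatocytes apart from less of a transcript in each.

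**Figure D3:**
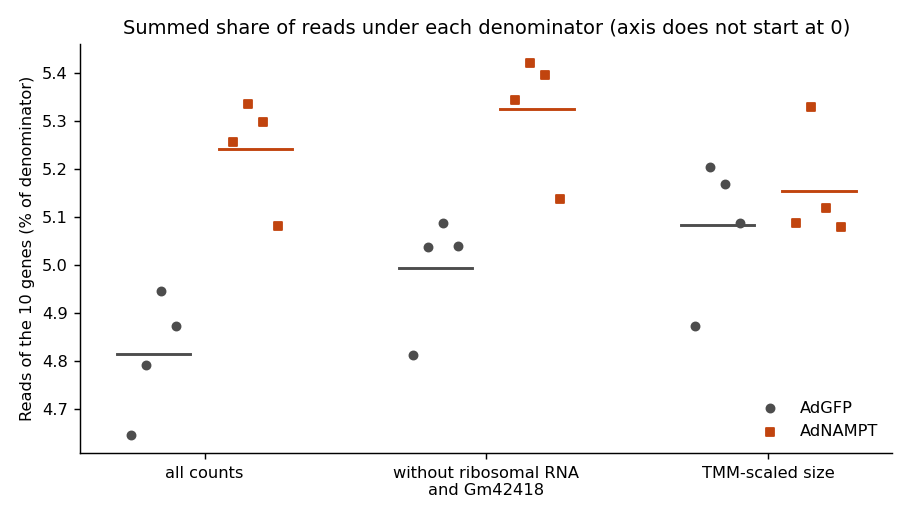
Summed reads of the 10 genes as a percentage of all counts, of counts without ribosomal RNA features and Gm42418, and of the TMM-scaled library size, for AdGFP (grey circles) and AdNAMPT (orange squares) libraries with bars at the means. The groups are apart under the first (means 4.81 and 5.24%) and the second (4.99 and 5.33%) and overlap under the last (5.08 and 5.15%).

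Ratios between members within a library do not depend on library scaling, and all 45 pairs were compared by the SD of their log2 read ratio over the 8 libraries. Apoc1 and Apoe, neighbours on chromosome 7, kept the closest ratio of the 45 (SD 0.0855), followed by Apoa2 with Mttp (0.124), Apoc1 with Mttp (0.125) and Apoa5 with Apoc3 (0.133). The loosest pairs all held Apoa4: with Apob (0.403), Apoh (0.379), Apoc1 (0.353) and Apoa5 (0.326). The ratios of neighbouring genes were not closer as a group. The 7 pairs of the chromosome 7 and chromosome 9 clusters had a median SD of 0.275, within 0.0855 to 0.326, and the 38 other pairs a median of 0.218, within 0.124 to 0.403. Apoa4 had the highest median SD to the other 9 genes (0.313) and Apoc1 the lowest (0.169).

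**Figure D4:**
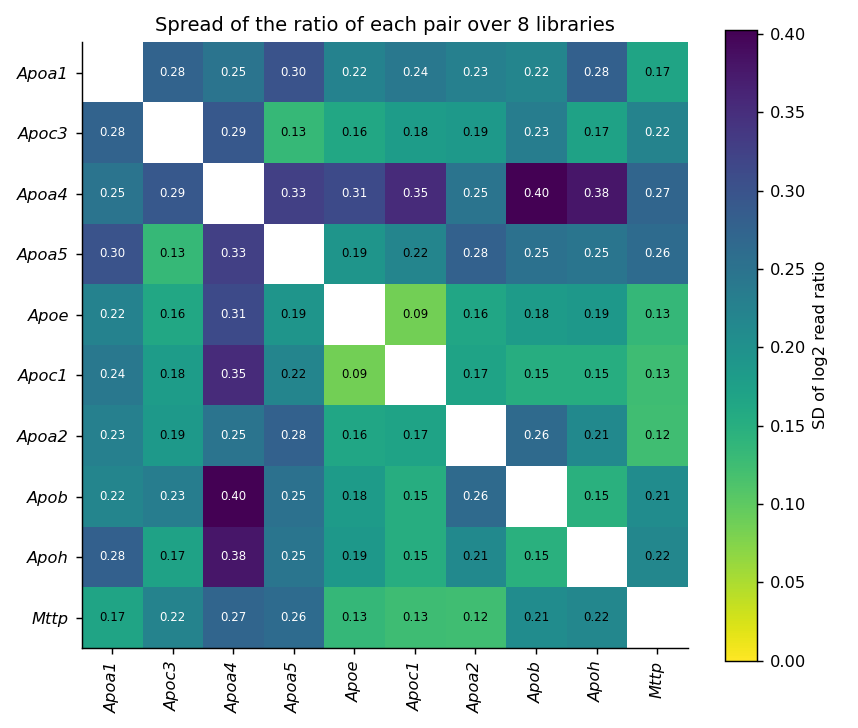
SD over the 8 libraries of the log2 read ratio for each pair of the 10 genes, ordered with the chromosome 9 cluster first and the chromosome 7 pair next (darker is more variable). Apoc1 with Apoe is the palest cell (0.0855), and the darkest cells lie in the Apoa4 row.

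In 1 of the 45 pairs (2.22%), Apoc1 with Apoe, the ratio kept the groups apart, against 5.04% of all pairs of tested genes, so the count is not above the background and the values describe this pair only. For every 100 reads of Apoe there were 31.6, 30.5, 29.5 and 29.5 reads of Apoc1 in AdGFP, as against 27.0, 28.9, 26.9 and 27.3 in AdNAMPT. Every AdNAMPT library lay under every AdGFP library, with means of 30.3 ± 0.988 and 27.5 ± 0.908 reads. On the log2 scale the mean ratio was -1.72 in AdGFP and -1.86 in AdNAMPT, a difference of -0.14. In the other 44 pairs the groups overlapped. Of the reads of all 10 genes together, Apoc1 took 9.38 ± 0.510% in AdGFP and 8.83 ± 0.0544% in AdNAMPT. The groups only just missed overlap, with AdGFP replicate 3 at 8.916% and AdNAMPT replicate 2 at 8.906%. For the other 9 genes these shares overlapped. The share draws on the same Apoc1 and Apoe reads as the ratio, and no background over all genes was computed for it. The pair of Apoc1 and Apoe was picked out after its values were seen, neither gene passed the limma test on its own, and no test was applied to the ratio.

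For the 4 most variable members, the 2 tested genes outside the set with the smallest SD of the log2 read ratio to the member over the 8 libraries were taken. For Apoa4 these were Amotl2 (SD 0.100) and 1500026H17Rik (0.115), where the median SD over all genes was 0.367. Apoa5 was followed most closely by Sec14l1 (0.0635) and Slc25a45 (0.0801), against a median of 0.275. For Apoa1 they were Zfyve26 (0.0637) and Wipf2 (0.0640), against 0.261, and for Apoc3 Sin3b (0.0682) and Acyp1 (0.0721), against 0.247. These genes were the nearest of 12270 tested, and the values are descriptions over 8 libraries.

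Of 96 further genes of lipoprotein metabolism in 4 lists, 92 were tested and 0 passed an adjusted p of 0.05 by limma, nor by the edgeR quasi-likelihood test, while DESeq2 called 1 (Onecut1). At an unadjusted p under 0.05 there were 5 higher and 10 lower in AdNAMPT, or 16.3% of the 92 against 9.69% of all tested genes. Among other apolipoproteins and particle enzymes (14 of 15 tested), 3 estimates were higher and 11 lower, with a median log2 fold change of -0.10, and 3 lower ones had an unadjusted p under 0.05. These were Saa4, a constitutive apolipoprotein of high-density lipoprotein (log2 fold change -0.37, SE 0.10; adjusted p 0.290), Lipc, hepatic lipase (-0.40, SE 0.12; adjusted p 0.357), and Pon1, an esterase carried on high-density lipoprotein (-0.26, SE 0.11; adjusted p 0.503). Lipc stood at 127.6 to 201.1 CPM in AdGFP and 124.9 to 146.0 CPM in AdNAMPT, so the groups overlapped. Pltp, the phospholipid transfer protein, had the largest estimate of that list, 0.94, but varied from 7.33 to 49.3 CPM within AdNAMPT alone (SE 0.45; adjusted p 0.549), and its exons overlap Ctsa on the other strand by 495 bases.

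Among 26 genes of particle assembly and secretion, all tested, 14 estimates were higher and 12 lower, and the median log2 fold change was 0.00. Cideb, which acts in lipid loading of very-low-density particles in hepatocytes, was at 45.7 to 53.3 CPM in AdGFP and 36.6 to 43.9 CPM in AdNAMPT, with every AdNAMPT library under every AdGFP library (log2 fold change -0.30, SE 0.08; limma adjusted p 0.300). Pdia3, a disulfide isomerase of the endoplasmic reticulum, had a log2 fold change of -0.18 (SE 0.08; adjusted p 0.503), and Pla2g12b, which takes part in very-low-density particle secretion, a log2 fold change of -0.12 (SE 0.06; adjusted p 0.584). Exons of Cideb overlap Nop9 on the other strand by 1141 bases, and those of Pdia3 overlap Catsper2 on the other strand by 18 bases. If counting ignored strand, reads in the shared bases would be ambiguous and left out. Pnpla3, a lipid droplet protein, had the largest estimate (2.0) with an SE of 1.14, and ranged over 0.410 to 10.1 CPM in AdGFP and 0.250 to 24.8 CPM in AdNAMPT.

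Among receptors and clearance genes (21 of 23 tested) 11 estimates were higher and 10 lower, with a median of 0.01. Angptl8, a secreted inhibitor of lipoprotein lipase that rises with feeding, was at 41.4 to 92.8 CPM in AdGFP and at 87.8 to 229.2 CPM in AdNAMPT, and AdNAMPT replicate 4 fell inside the AdGFP range (log2 fold change 1.18, SE 0.31; limma adjusted p 0.274). Gpihbp1, which anchors lipoprotein lipase to capillaries, had a log2 fold change of 0.33 (SE 0.11; adjusted p 0.425). Sdc1, a heparan sulfate receptor for remnants, had -0.28 (SE 0.10; adjusted p 0.440). Abcg8, a part of the sterol exporter that overlaps its partner gene Abcg5 on the other strand, had -0.21 (SE 0.09; adjusted p 0.492). Of 31 regulators tested, 14 estimates were higher and 17 lower, with a median of -0.02. Foxa2 (0.47, SE 0.13; adjusted p 0.338) and Onecut1 (0.92, SE 0.29; adjusted p 0.385), both hepatocyte transcription factors, had higher estimates with an unadjusted p under 0.05. Nr0b2, the bile-acid-induced repressor SHP, had -0.33 (SE 0.11; adjusted p 0.411). Onecut1 stood at 3.35 to 5.38 CPM in AdGFP and at 24.2, 6.42, 8.75 and 10.4 CPM in the AdNAMPT libraries, the first of which was the library of lowest weight. Its exons share 2171 bases with Gm20649 on the same strand, so reads of both may be hard to tell apart. It was the gene called by DESeq2, with a log2 fold change of 1.35 and an adjusted p of 0.0151.

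**Figure D5:**
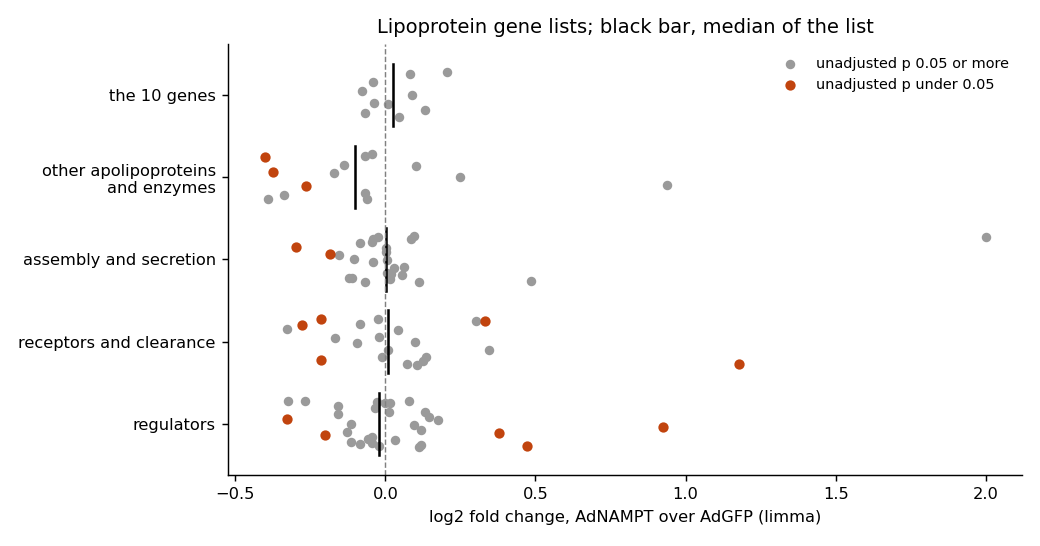
Log2 fold change (AdNAMPT over AdGFP, limma) of each tested gene in the 10-gene set and the 4 lipoprotein lists, orange where the unadjusted p was under 0.05, with a black bar at each list's median. The 10 genes lie within -0.08 to 0.20, and the medians of the 4 lists lie within -0.10 to 0.01.

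Cell type markers were read beside these values. Hepatocyte markers summed to 97971 to 121858 CPM in AdGFP and 96134 to 121257 CPM in AdNAMPT for the 7 of 8 symbols that were found. Of these 7, 6 had lower estimates in AdNAMPT, with a median log2 fold change of -0.16, 1 at an unadjusted p under 0.05 (Ahsg, log2 fold change -0.44, limma adjusted p 0.357) and 0 past the adjusted threshold. Of 8 Kupffer cell markers all had lower estimates in AdNAMPT, with a median log2 fold change of -0.38, 3 at an unadjusted p under 0.05 (Vsig4, Timd4 and Clec4f) and 0 past the adjusted threshold. At an unadjusted p under 0.05 by limma this was 37.5% of the Kupffer cell markers and 14.3% of the hepatocyte markers, against 9.69% of all tested genes. Of all 12270 tested genes, 6080 had lower estimates. The Kupffer cell markers summed to 266.7 to 338.7 CPM in AdGFP and 200.3 to 328.3 CPM in AdNAMPT. Summed sinusoidal endothelial markers were 280.5 to 333.2 and 314.5 to 350.8 CPM, and stellate markers 353.8 to 405.2 and 372.0 to 434.5 CPM. Cholangiocyte markers summed to 26.7 to 42.2 and 29.6 to 44.4 CPM. Lymphocyte markers summed to 1.10 to 1.98 and 1.75 to 4.60 CPM. Estimates were higher in AdNAMPT for 4 of 7 tested endothelial, 4 of 8 stellate and 3 of 5 cholangiocyte markers. The median log2 fold changes were 0.08, 0.01 and 0.04. Each of these lists held 1 marker at an unadjusted p under 0.05 by limma (Stab1, Col1a1 and Sox9). All were higher in AdNAMPT, and 0 passed the adjusted threshold. For Apoa4, which gut also makes, the gut and pancreas markers Cdx2, Alpi, Prss1 and Cpa1 were at 0 in every library, while Fabp2 was at 61.8 to 194.0 CPM. Of the other 3 on that list of 8, only Cela1 passed the filter (mean 6.66 CPM, log2 fold change 0.17, limma adjusted p 0.816), and the whole list summed to 93.6 to 127.3 CPM in AdGFP and 67.9 to 204.4 CPM in AdNAMPT. Apoe is also made by macrophages, and the part of the cell mixture in its level was not tested.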

How the data were processed

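RNA was sequenced from 8 livers, 4 AdGFP and 4 AdNAMPT, grouped by the sample titles. Per the labels and the study, single reads were aligned with STAR to GRCm38 and the authors counted unique reads per gene with featureCounts 1.4.5, giving whole-number counts. The labels give STAR 2.4.0b, while the study's methods print another version number. The deposited CPM are counts scaled to each library's total, and the deposited RPKM are those CPM per kilobase of exon. The labels name ribosomal RNA depletion, while the study's methods name poly-A selection. Symbols were matched for 40340 of 41388 features from GENCODE M21 and a gene name table, and promoter windows were taken from RefSeq (GRCm38.p6).

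Following the study's methods, 355 ribosomal RNA features and genes not above 1 CPM in at least 3 libraries were left out. TMM-scaled counts were fitted with limma 3.58.1 (voomWithQualityWeights; edgeR 4.0.16, R 4.3.3), with group as the only term, and an adjusted p of at most 0.05 was taken as changed. Log2 ratios of reads used an added count of 0.5. Steps were tested on simulated data. Alternatives were edgeR's quasi-likelihood test, DESeq2 1.42.0, unweighted voom, other scalings and filters, the replicate number as a block, and each library left out. Members and lists were chosen with earlier results of these data known. Besides the members and Nampt, the 4 genes with the lowest unadjusted p in each list were named, as were the 2 genes nearest in ratio to the 4 most variable members. A gene that this rule names is not reported here. Cell type markers were named after their values were seen. The mice carry no recorded litter or culture, so p-values judge the group difference against the spread between these livers. Libraries held 12006713 to 19879814 counts, and intervals are for the mean log2 difference between the groups, not for the range of libraries.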

Additional observations from a re-analysis of the deposited data

Results flagged for a closer look

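Dixon's gap test was applied to 28 values in each of the AdGFP and AdNAMPT groups. These were the members, Nampt, the genes named from the 4 lists and the members' summed share of counts. In 3 of these 56 groups of 4 libraries, 1 library stood far from the other 3, where chance alone gives about 2.8. None of the 3 was a value of the 10 genes. Pla2g12b stood at 45.3 CPM in AdNAMPT replicate 1, with the others at 38.9 to 39.5 CPM. Gpihbp1 stood at 35.3 CPM in AdGFP replicate 3, with the others at 26.4 to 27.6 CPM. Abcg8 stood at 79.6 CPM in AdNAMPT replicate 2, with the others at 83.1 to 83.7 CPM.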

How the results depend on the processing

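Under 16 alternatives, 0 of the 10 genes passed the threshold in any. Of 160 estimates, 141 kept their sign and 19 did not, and the largest of those 19 was 0.10 in size on the log2 scale. With library size alone, Apoa5 (0.0144), Apob (0.00842), Apoc1 (0.0450) and Apoh (0.0479) turned to positive estimates. Mttp turned negative with the edgeR quasi-likelihood test (-0.0197), DESeq2 (-0.0175), voom without sample weights (-0.0275) and no filter on low counts (-0.0111). Leaving out each library in turn gave log2 ranges of -0.0158 to 0.20 for Apoa1, -0.17 to 0.00888 for Apoa5, -0.0211 to 0.13 for Apoc3, -0.21 to 0.0975 for Apoh and -0.0454 to 0.0574 for Mttp.

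Same-numbered libraries deviated together with r of 0.23, -0.05, 0.21 and 0.01, so the numbers were not taken as pairs. With the replicate block, genes changed went from 34 to 41, Mttp was -0.00536, and Apoa4 had the smallest unadjusted p of the 10 (0.0330; limma adjusted p 0.498).

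DESeq2 called 75 genes against 34 and 1 transcriptional regulator (Onecut1) against 0. In simulated counts with 197 genes changed 3-fold, DESeq2 recovered 193 with 34 false calls, and weighted limma 189 with 15 false calls. The cause of the difference in these data was not tested. The summed share differed between groups by 0.429 percentage points of all counts and by 0.0704 with TMM-scaled sizes. Leaving out each library gave 28 to 38 genes changed. Each of the 10 genes held at least 2664 reads in every library.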
